A study of Mus musculus with 24 samples.

Results

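The genes described here control the shape and the removal of mitochondria: Mfn1, Mfn2 and Opa1, which fuse them, Dnm1l, Mff and Fis1, which divide them, and Pink1, Bnip3 and Bnip3l, which mark damaged ones for degradation. They were chosen by name, as the probes whose gene name in the array files is 1 of these 9, which gave 9 of 34844 gene names and 21 of 55681 distinct probes. RNA levels were measured in heart muscle cells that were wild type or carried a conditional, cardiomyocyte-directed deletion of Top2b, which encodes topoisomerase II beta, a DNA-untangling enzyme that the anthracycline doxorubicin poisons. Mice were injected intraperitoneally with doxorubicin (25 mg/kg) or with PBS. Hearts were collected after 16 h or 72 h and perfused with enzyme by the Langendorff method to free the living cardiomyocytes. The 8 groups are wild type with PBS, wild type with doxorubicin, Top2b-deleted with PBS and Top2b-deleted with doxorubicin, each at 16 h and at 72 h, with 3 arrays a group and 24 in all. All mice are labelled male, 6 weeks old and of a 129SvEv/C57BL/6 background. The labels do not name the promoter that drives the deletion, do not say whether wild-type mice carry a Cre transgene, and do not state whether different arrays come from different animals. The p-values thus measure only the spread between these samples, which may be technical.

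Mitochondria in heart muscle are packed between the myofibrils and supply most of its ATP. The outer membranes of 2 mitochondria are joined by the GTPases mitofusin 1 and mitofusin 2 and the inner membranes by the GTPase OPA1, while the GTPase DRP1 (Dnm1l) is recruited from the cytosol by adaptors such as MFF and FIS1 and constricts the organelle until it divides. In mitophagy, the kinase PINK1 accumulates on damaged mitochondria and starts their tagging with ubiquitin, and the outer membrane proteins BNIP3 and NIX (Bnip3l) bind the autophagosome directly.

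In wild-type cardiomyocytes 16 h after doxorubicin both mitofusins and Dnm1l fell and Bnip3 rose. Mfn1 fell to 0.432 of its PBS level, Dnm1l to 0.597 and Mfn2 to 0.692, while Bnip3 reached 1.67 times its PBS level. Of all genes 27.8% passed there. None of these 4 members passed the test in Top2b-deleted cells, where 0% of all genes did. For Mfn1, Mfn2 and Dnm1l the responses of the genotypes differed, as for 11.4% of all genes. That call was lost in 17 of 25 alternative fits for Mfn2, 5 for Dnm1l and 1 for Mfn1. At 72 h only Opa1 passed in wild type, lower after doxorubicin, with 2.69% of all genes. Its call was lost in 14 of 24 alternatives, and more members passed with the slide as a block. In Top2b-deleted cells no member and 0% of all genes passed.

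Several facts of the arrays touch these comparisons. The share of spots well above background was 42.9% to 52.6%, and replicates of a group correlated at 0.955 or more over the probes kept for the fits. Top2b itself was lower on every array titled Top2b-deleted than on any wild-type array of the same time, at log2 levels of 2.54 to 3.34 against 4.03 to 4.39 at 16 h and 2.13 to 3.07 against 3.25 to 3.65 at 72 h. For 4 of the 16 h arrays the genotype field contradicts the title, and the titles are used here. All 10 cardiomyocyte markers checked (such as Myh6 and Tnnt2) were well above background in every group. Although all labels say male, transcripts of Ddx3y, on the Y chromosome, were above background on 7 arrays, including 3 of 3 wild-type PBS arrays but 1 of 3 wild-type doxorubicin arrays at 16 h, and Xist on the other 17. A probe for Esr1, the estrogen receptor gene, part of which some inducible Cre transgenes carry, was well above background on 12 of 12 Top2b-deleted and 6 of 12 wild-type arrays, with 0 of 3 wild-type PBS and 2 of 3 wild-type doxorubicin arrays at 16 h. At 72 h its wild-type log2 levels were 8.41, 8.58 and -6.18 with PBS and 6.62, -2.06 and -4.37 with doxorubicin. Those of Top2b-deleted cells were 6.70 to 7.10 with PBS and 5.24 to 6.35 with doxorubicin. The 16 h arrays lie on other slides than the 72 h arrays, so levels are not compared between times. Levels are log2 processed signal minus the 75th percentile of the array, and differences are in log2 units with the standard error of the limma fit.

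**Figure D1:**
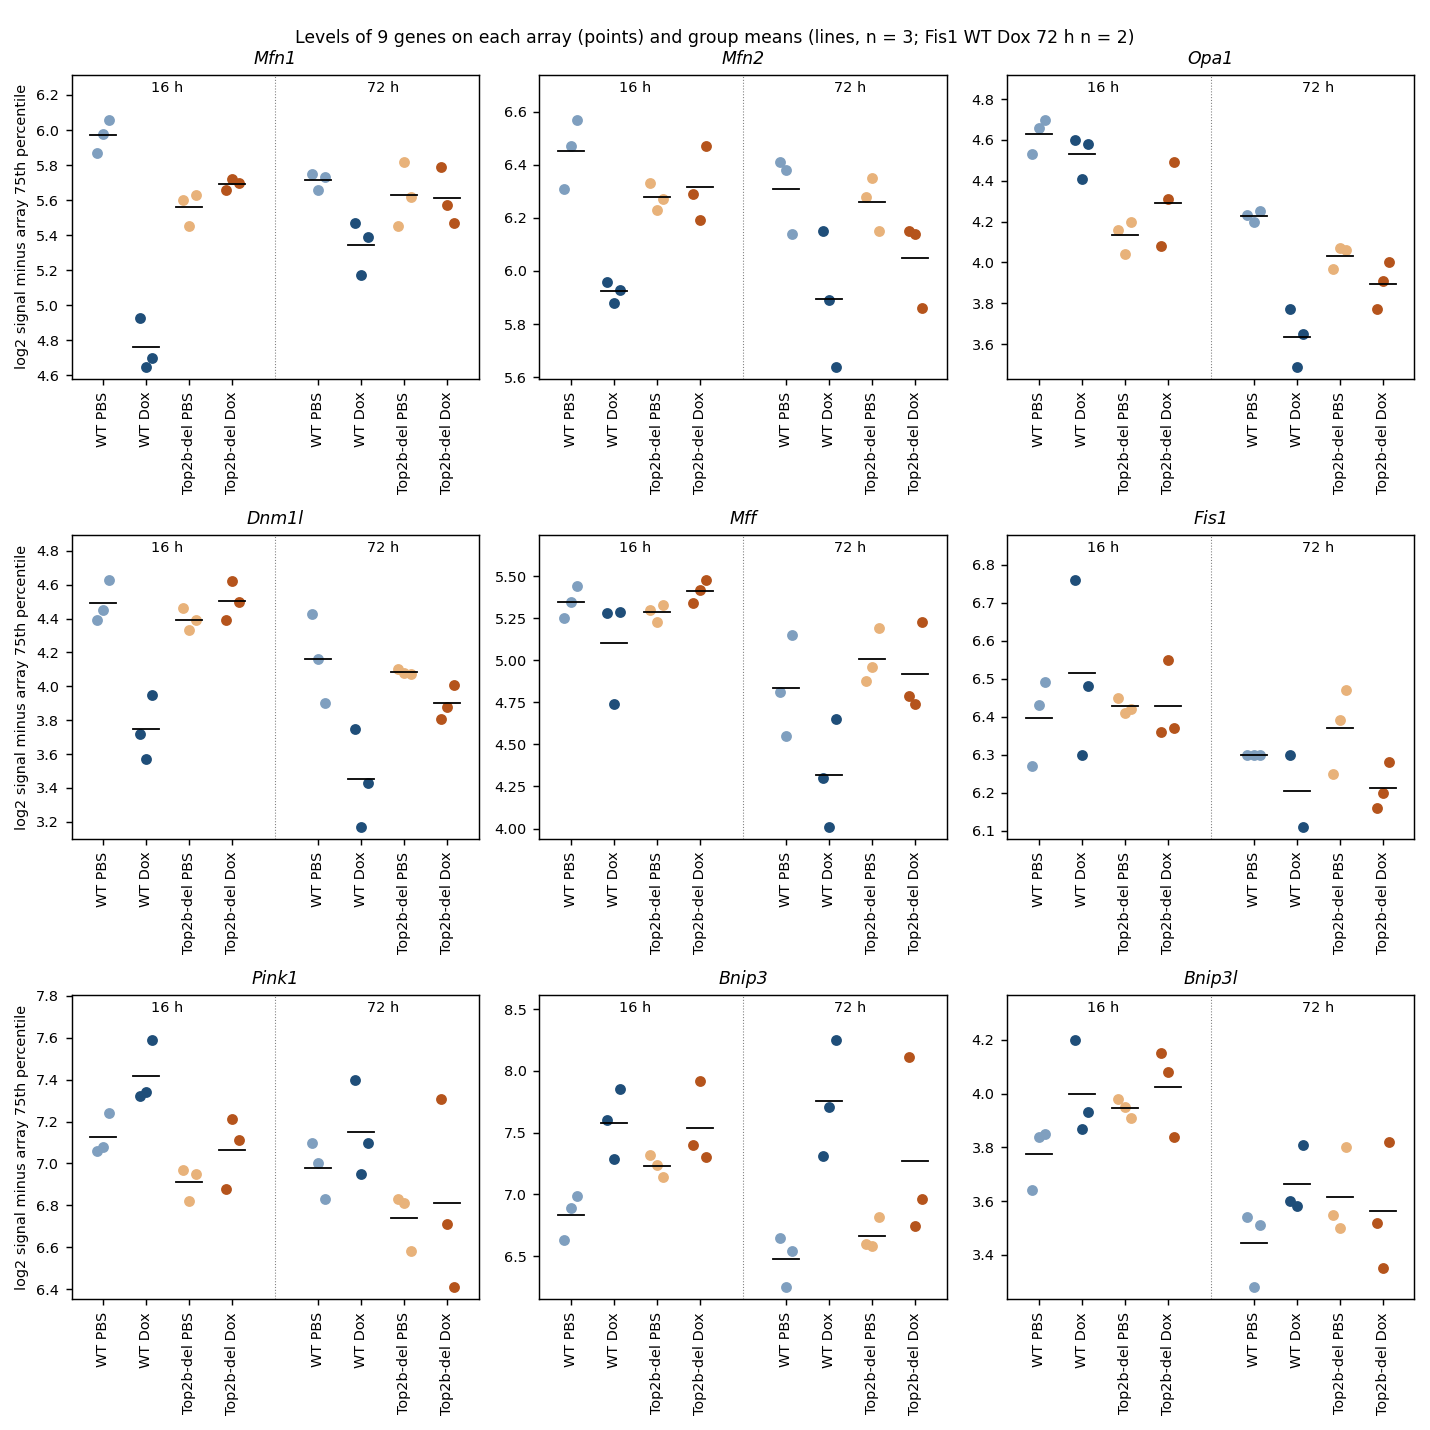
Log2 level of each gene's brightest kept probe (log2 signal minus the 75th percentile of the array, each panel with its own axis) on each of the 24 arrays, by genotype, treatment and time. Points are arrays and lines are group means. For Mfn1, the wild-type doxorubicin arrays of 16 h sit between 4.65 and 4.93, below all other arrays of that time.

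Mfn1, whose product tethers outer membranes for fusion, had log2 levels of 5.87, 5.98 and 6.06 on the wild-type PBS arrays at 16 h and 4.93, 4.65 and 4.70 on the doxorubicin arrays. In Top2b-deleted cells its levels were 5.60, 5.45 and 5.63 with PBS and 5.66, 5.72 and 5.70 with doxorubicin. The wild-type doxorubicin arrays were thus the lowest 3 of the 12 by a wide gap, and the Top2b-deleted arrays lay below all wild-type PBS arrays whether or not the drug was given. The wild-type difference was -1.21 ± 0.11 (limma adjusted p = 8.09e-05) and the Top2b-deleted difference was 0.13 ± 0.11 (limma adjusted p = 1). The second Mfn1 probe gave -1.28 ± 0.11 in wild type (limma adjusted p = 7.02e-05). Both probes (mm9, chromosome 3, 32476215 to 32476274 and 32476420 to 32476479, plus strand) are assigned to 1 RefSeq transcript in the array files.

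Mfn2, the other mitofusin, which also links mitochondria to the endoplasmic reticulum, had log2 levels of 6.31, 6.47 and 6.57 with PBS and 5.96, 5.88 and 5.93 with doxorubicin in wild type at 16 h. In Top2b-deleted cells the levels were 6.33, 6.23 and 6.27 with PBS and 6.29, 6.19 and 6.47 with doxorubicin. The wild-type groups did not overlap and the Top2b-deleted groups did. The difference was -0.53 ± 0.11 in wild type (limma adjusted p = 0.006) and 0.04 ± 0.11 in Top2b-deleted cells (limma adjusted p = 1). Without the 4 arrays whose genotype field contradicts the title, the wild-type difference was -0.49 (limma adjusted p = 0.0652). In a fit of the wild-type arrays alone its adjusted p was 0.0631. Neighbouring Mfn2 probes gave -0.51 ± 0.12 and -0.54 ± 0.11 in wild type, and 0.10 ± 0.12 and -0.03 ± 0.11 in Top2b-deleted cells. A further Mfn2 probe, which lies upstream, is described below.

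Dnm1l, which encodes the fission GTPase DRP1, had log2 levels of 4.39, 4.45 and 4.63 with PBS and 3.72, 3.57 and 3.95 with doxorubicin in wild type at 16 h. Its Top2b-deleted levels were 4.46, 4.33 and 4.39 with PBS and 4.39, 4.62 and 4.50 with doxorubicin. As for Mfn1, the wild-type doxorubicin arrays stood below all other arrays of that time, and the remaining groups lay together. The wild-type difference was -0.74 ± 0.13 (limma adjusted p = 0.00214) and the Top2b-deleted difference 0.11 ± 0.13 (limma adjusted p = 1).

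Bnip3, the mitophagy receptor and BH3-only protein, had log2 levels of 6.63, 6.89 and 6.99 with PBS and 7.60, 7.29 and 7.85 with doxorubicin in wild type at 16 h. In Top2b-deleted cells the levels were 7.32, 7.24 and 7.14 with PBS and 7.40, 7.92 and 7.30 with doxorubicin. The wild-type groups were apart, whereas 1 of 3 Top2b-deleted doxorubicin arrays lay inside the range of the PBS arrays, all of which were above the wild-type PBS arrays. The wild-type difference was 0.74 ± 0.19 (limma adjusted p = 0.0162), and its 3 probes gave 0.74, 0.77 and 0.96. The call was lost with Y-linked transcript status as a covariate (0.68, limma adjusted p = 0.0625) and without the 4 arrays whose genotype field contradicts the title (0.81, limma adjusted p = 0.0871). Leaving out wild-type PBS replicate 1 also ended it.

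The other 5 members did not pass at 16 h. Opa1, the inner membrane fusion GTPase, differed by -0.10 ± 0.13 in wild type (limma adjusted p = 0.589), and its levels of 4.53, 4.66 and 4.70 with PBS and 4.6, 4.41 and 4.58 with doxorubicin overlapped. The DRP1 receptor Mff was at -0.24 ± 0.15, where doxorubicin replicate 2 (4.74) lay apart from replicates 1 and 3 (5.28 and 5.29), and the adaptor Fis1 was at 0.12 ± 0.13. Pink1, the kinase that senses damaged mitochondria, was at 0.29 ± 0.13 (limma adjusted p = 0.111), with levels of 7.06 to 7.24 with PBS and 7.32 to 7.59 with doxorubicin that did not overlap. The BNIP3 homologue Bnip3l was at 0.22 ± 0.13 (limma adjusted p = 0.225) on its brightest probe and between 0.30 and 0.37 on the other 3, all 4 above 0. With normexp background correction it was called higher (0.35, limma adjusted p = 0.0485).

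Set against all genes, 4 of 9 members passed in wild type at 16 h, 1 higher and 3 lower, where 27.8% of the 18750 genes fitted passed, 13.7% higher and 14.1% lower. The members' median difference was -0.10 and that of all genes -0.02. With so many genes called, the share of members called stands near the background. The called members differed in direction: Mfn1, Mfn2 and Dnm1l fell and Bnip3 rose. Slide 1 carries both wild-type groups of 16 h, and within it the 4 calls were kept, with a highest adjusted p of 0.0316 for Bnip3. With Y-linked transcript status as a covariate the differences of Mfn1, Mfn2 and Dnm1l were -1.14, -0.52 and -0.82, all still past the threshold. The part of the Esr1 signal in these differences was not tested.

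Markers of other cell types moved in the same comparison. Of 3 neutrophil markers tested, Ly6g rose, at 1.85 ± 0.29. S100a8 was well above background on 0 of 3 wild-type PBS arrays and S100a9 on 1 of 3. Both passed the filter only through doxorubicin arrays, so their calls are not counted as rises and no size is given. The summed level of the neutrophil markers on the linear scale, in units of the array's 75th percentile, was 0.354 to 0.701 with PBS. With doxorubicin it was 1.43 to 4.56. Cxcr2 and Retnlg were not well above background on any of these arrays. Fibroblast markers fell for 4 of 7, although their summed levels overlapped (24.1 to 35.7 and 22 to 50.3), and smooth muscle and pericyte markers for 4 of 6, the latter from summed levels of 78.6 to 102 to levels of 28.1 to 34.6. Of the other lists, 1 of 10 cardiomyocyte markers, 1 of 6 endothelial markers and the 1 adipocyte marker tested fell. For macrophage, erythroid and lymphocyte markers 0 passed. The summed level of the 10 cardiomyocyte markers was 9290 to 10300 with PBS and 7480 to 9740 with doxorubicin. In bulk RNA, fewer cells of a type and less RNA per cell cannot be told apart, and the part of these cells in the members' differences was not tested.

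**Figure D2:**
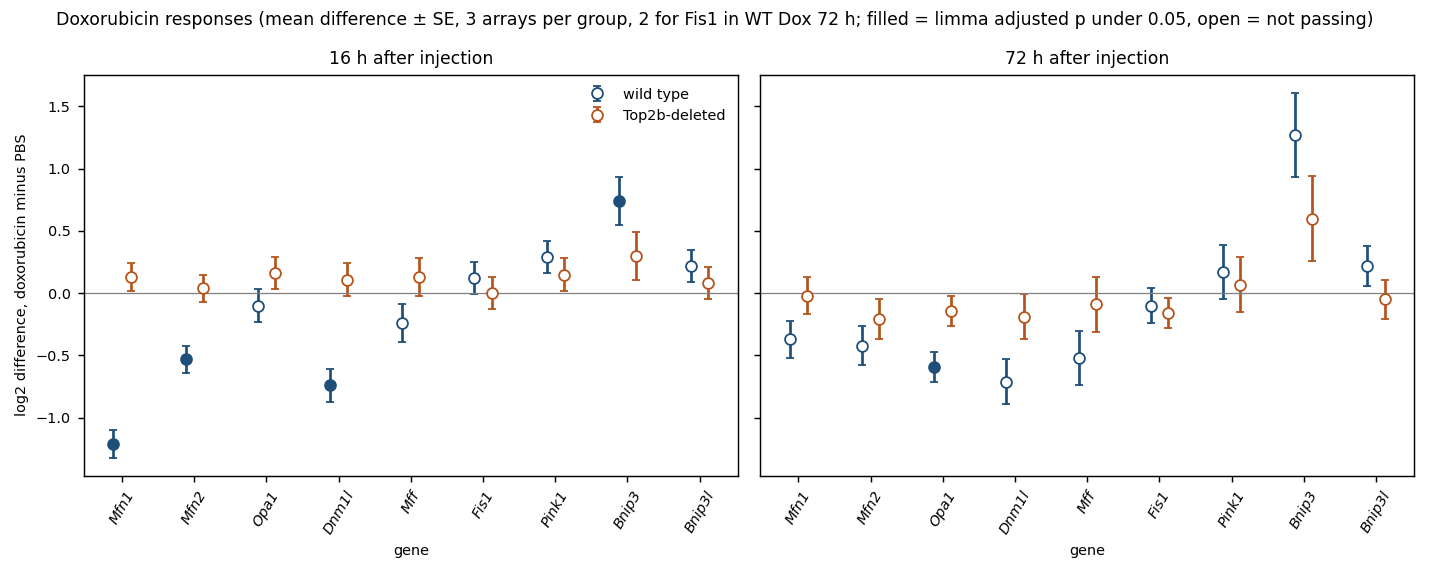
Log2 difference between doxorubicin and PBS (mean ± SE) for each gene in wild-type and Top2b-deleted cardiomyocytes, 16 h (left) and 72 h (right) after injection. Filled points passed the limma threshold: Mfn1, Mfn2, Dnm1l and Bnip3 in wild type at 16 h, and Opa1 in wild type at 72 h.

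The promoters of the members that moved at 16 h are shown because the 3 fallers and Bnip3 changed in opposite directions. Each is the 250 bases before the most upstream transcription start in the RefSeq table (GRCm38.p6), in the gene's own direction, at chr3:32529232-32529481 (plus strand) for Mfn1, chr4:147904910-147905159 (minus) for Mfn2, chr16:16359032-16359281 (minus) for Dnm1l and chr7:138909507-138909756 (minus) for Bnip3. Capitals mark matches, on either strand, to any of 4 motifs. The core of the hypoxia response element was searched as ACGTG. The binding site of the factor NF-Y, known as the CCAAT box, was searched by those letters. The GC box, which SP1 binds, was searched as GGGCGG. The motif of NRF1, a regulator of nuclear genes for mitochondrial proteins, was searched too. Another motif, TNAAGGTCA (the site of estrogen-related receptors), was also searched.
Mfn1: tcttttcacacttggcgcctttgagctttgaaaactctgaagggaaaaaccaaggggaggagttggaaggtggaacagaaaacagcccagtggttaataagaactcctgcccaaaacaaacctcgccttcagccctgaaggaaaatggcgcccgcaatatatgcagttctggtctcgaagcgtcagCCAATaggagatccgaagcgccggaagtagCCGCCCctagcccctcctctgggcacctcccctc
Mfn2: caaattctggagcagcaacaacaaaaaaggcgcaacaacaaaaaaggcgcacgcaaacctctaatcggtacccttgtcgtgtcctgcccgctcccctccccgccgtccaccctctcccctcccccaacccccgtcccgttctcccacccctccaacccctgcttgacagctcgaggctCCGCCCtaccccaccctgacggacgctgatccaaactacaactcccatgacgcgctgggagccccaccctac
Dnm1l: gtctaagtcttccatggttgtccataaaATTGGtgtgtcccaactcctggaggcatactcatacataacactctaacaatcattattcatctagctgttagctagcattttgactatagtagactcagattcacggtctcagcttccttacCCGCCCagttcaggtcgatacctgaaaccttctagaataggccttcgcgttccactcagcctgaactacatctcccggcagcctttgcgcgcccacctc
Bnip3: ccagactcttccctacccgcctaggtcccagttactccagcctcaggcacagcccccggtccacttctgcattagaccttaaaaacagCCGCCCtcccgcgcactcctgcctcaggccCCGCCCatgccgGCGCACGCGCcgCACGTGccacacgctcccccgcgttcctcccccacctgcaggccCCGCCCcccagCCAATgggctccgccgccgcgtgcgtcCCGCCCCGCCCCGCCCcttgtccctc

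The Bnip3 window held 6 GC boxes, overlapping in part, 1 CCAAT box, 1 NRF1 motif and a palindrome that counts as 1 match to ACGTG on each strand, the first 108 bases before the start. The Mfn1 window held 1 CCAAT box and 1 GC box, the Dnm1l window 1 of each, and the Mfn2 window 1 GC box. Over the 8 members with an entry in the table, the hypoxia core was found in 1 window, the CCAAT box in 6, the GC box in 8, the NRF1 motif in 3 and the receptor motif in 0. The same windows of 17492 protein-coding genes held them in 17.6%, 36.5%, 42.7%, 5.32% and 0.96% of cases. These matches describe letters in a window and do not show that a factor binds there.

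The next comparison asked whether the drug's effect differed with genotype, as the Top2b-deleted response minus the wild-type response. At 16 h it was positive and past the threshold for Mfn1 (1.35 ± 0.16, limma adjusted p = 0.00141), Dnm1l (0.85 ± 0.18, limma adjusted p = 0.0161) and Mfn2 (0.57 ± 0.16, limma adjusted p = 0.0427), the 3 genes that fell in wild type. No member passed in the negative direction, and for Bnip3 the difference of responses was -0.44 ± 0.27 (limma adjusted p = 0.321, 95% interval -1.04 to 0.16). Of all genes 11.4% passed, 6.17% higher and 5.27% lower, against 3 of 9 members, all higher. Of the calls 53.9% were higher, and 63.9% when each array was scaled to its median. These values contain the wild-type response, with its PBS and doxorubicin arrays, and are not a second line of evidence for it. Cell type markers passed in the same test: the cardiomyocyte genes Pln (1.30 ± 0.22) and Ttn (1.01 ± 0.19) of 10, the fibroblast gene Col3a1 (2.21 ± 0.45) of 7 and the smooth muscle gene Acta2 (2.35 ± 0.42) of 6 were higher. The macrophage gene Mrc1 (-1.75 ± 0.48) of 5 and the neutrophil gene Ly6g (-1.82 ± 0.41) of 3 were lower, and 0 endothelial, erythroid, lymphocyte and adipocyte markers passed. Their part in the members' differences was not tested.

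In Top2b-deleted cells alone 0 of 9 members passed at 16 h, as did 0% of all genes by limma (791 genes had an unadjusted p under 0.05). The members' differences lay between -0.00 for Fis1 and 0.30 for Bnip3, with a median of 0.13 against 0.01 for all genes. The 95% intervals ran from -0.11 to 0.38 for Mfn1, -0.21 to 0.29 for Mfn2 and -0.17 to 0.39 for Dnm1l, none reaching the wild-type differences of those genes. For Bnip3 the interval of -0.12 to 0.73 nearly did. The Top2b-deleted doxorubicin arrays of 16 h all lie on slide 2, whereas PBS replicates 1 and 2 lie on slide 1 and only PBS replicate 3 on slide 2. Drug and slide thus largely overlap in this response and cannot be fully told apart, unlike in wild type, where both groups lie on slide 1.

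The Mfn1 difference between responses was kept in every alternative except grouping by the genotype characteristic. That of Dnm1l was lost with the slide as a block (0.85, limma adjusted p = 0.106) and without the 4 arrays whose genotype field contradicts the title (0.82, limma adjusted p = 0.0887). That of Mfn2 was lost in 17 of 25 alternatives, including both of these (adjusted p = 0.193 and 0.163). With each probe tested by itself, it was 0.57 ± 0.16 on the brightest Mfn2 probe (limma adjusted p = 0.0464 over probes). On the neighbouring probes it was 0.60 ± 0.17 and 0.51 ± 0.15, just short of the threshold (limma adjusted p = 0.051 and 0.055). At 16 h no slide holds all 4 groups, since slide 2 holds only Top2b-deleted arrays, so the difference of responses has no value within a slide.

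With PBS alone at 16 h, Top2b-deleted cells were lower than wild type in Mfn1 (-0.41 ± 0.11, limma adjusted p = 0.0376) and Opa1 (-0.50 ± 0.13, limma adjusted p = 0.0297), 2 of 9 members where 12.5% of all genes passed, 6.77% higher and 5.68% lower. For Opa1 the wild-type levels were 4.53 to 4.70 and the Top2b-deleted levels 4.04 to 4.20, with no overlap. A second Opa1 probe, within the same transcript (mm9, chromosome 16, 29651875 to 29651934), differed by only -0.17 ± 0.16 (limma adjusted p = 0.531 over probes), so the 2 probes of the gene disagree. Both calls were lost with the slide as a block (Mfn1 -0.45, adjusted p = 0.0794, and Opa1 -0.53, adjusted p = 0.0688), with Y-linked transcripts as a covariate and when any 1 PBS array was left out. In the same comparison 4 of 7 fibroblast markers were higher in Top2b-deleted cells (summed levels of 45.3 to 96.8 against 24.1 to 35.7), 2 of 6 smooth muscle and 1 of 6 endothelial markers were lower, and the summed cardiomyocyte markers were at 7670 to 8100 against 9290 to 10300. Ddx3y was above background on 3 of 3 wild-type and 0 of 3 Top2b-deleted PBS arrays, and the Esr1 probe on 0 of 3 and 3 of 3. The part of these in the 2 calls was not tested. At 72 h no member passed in this comparison, where 2.15% of genes did (1.07% higher, 1.08% lower). Opa1 had the smallest adjusted p at -0.20 ± 0.12 (limma adjusted p = 0.598). Its wild-type levels of 4.20 to 4.25 and Top2b-deleted levels of 3.97 to 4.07 did not overlap. The second Opa1 probe had the opposite sign there, at 0.09 ± 0.15 (limma adjusted p = 0.898 over probes), so the probes disagree at this time too.

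**Figure D3:**
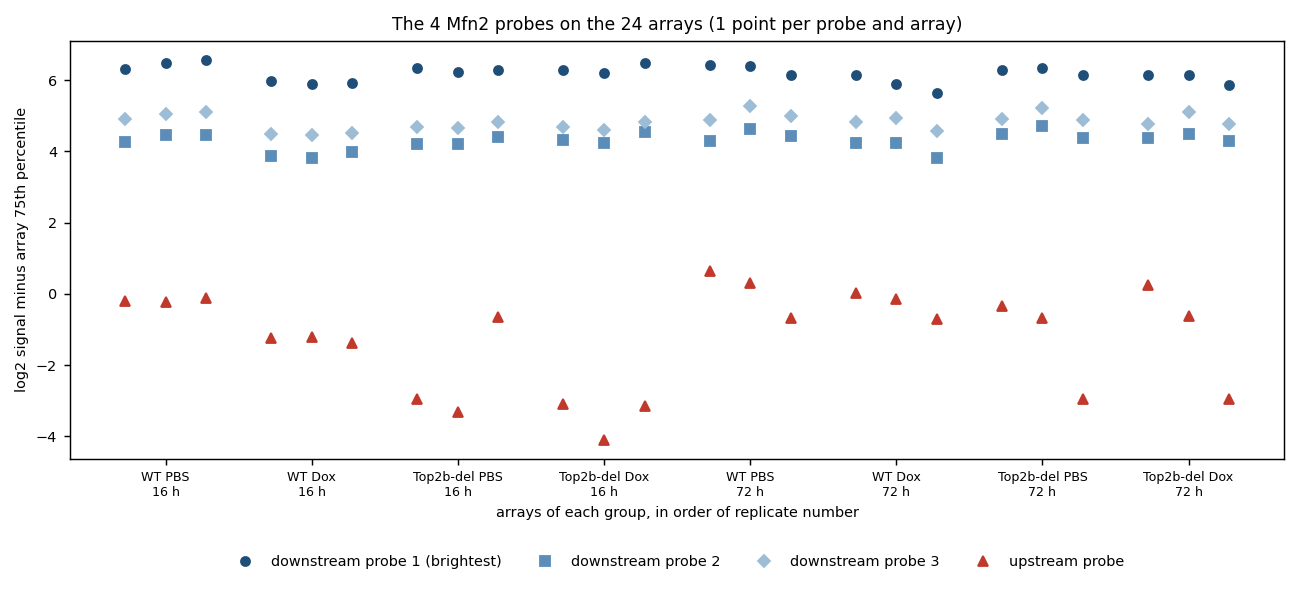
Log2 level (log2 signal minus the 75th percentile of the array) of the 4 Mfn2 probes on the 24 arrays, in order of group and replicate number. The upstream probe is at -2.94 or less on 7 Top2b-deleted arrays and at -1.37 or more on the other 17. The 3 downstream probes show no such gap.

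The remaining Mfn2 probe differed from the others. Assigned in the files to a cDNA and not to the RefSeq transcript (mm9, chromosome 4, 147255665 to 147255724, minus strand), it lies upstream of the 3 other Mfn2 probes, which are all at 147247704 to 147248190. Its levels at 16 h were -0.20, -0.23 and -0.11 in wild type with PBS, -1.23, -1.22 and -1.37 in wild type with doxorubicin, -2.94, -3.31 and -0.66 in Top2b-deleted cells with PBS and -3.08, -4.09 and -3.16 with doxorubicin. At 72 h it was -2.95 and -2.94 on the Top2b-deleted replicate 4 arrays with PBS and doxorubicin and between -0.72 and 0.65 on the other 10. The 24 arrays thus fall into 7 at or below -2.94, all Top2b-deleted, and 17 at or above -1.37, a gap that the other 3 probes do not show. In PBS at 16 h the genotypes differed by -2.12 ± 0.56 on this probe (limma adjusted p = 0.035 over probes), against -0.13, -0.18 and -0.29 on the other 3. That value is a mean over Top2b-deleted arrays that lay far apart (-2.94, -3.31 and -0.66). The probe is dim, and the Top2b-deleted doxorubicin array at -4.09 was not well above background. After doxorubicin at 16 h this probe differed by -1.09 ± 0.56 in wild type (limma adjusted p = 0.172 over probes) and by -1.14 ± 0.56 in Top2b-deleted cells. Its difference of responses was -0.05 ± 0.79 (limma adjusted p = 0.976 over probes). The array files do not say which Mfn2 transcripts it reads.

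None of the 4 genes called at 16 h passed at 72 h in wild type in the fit without a block. The signs of their differences were those of 16 h. At 72 h after doxorubicin Opa1 was the 1 member called in wild type in that fit. Its log2 levels were 4.23, 4.20 and 4.25 with PBS and 3.77, 3.49 and 3.65 with doxorubicin in wild type, and 3.97, 4.07 and 4.06 with PBS and 3.77, 3.91 and 4.0 with doxorubicin in Top2b-deleted cells. The wild-type doxorubicin arrays shared no value with any PBS array of either genotype. The difference was -0.59 ± 0.12 in wild type (limma adjusted p = 0.0411) and -0.14 ± 0.12 in Top2b-deleted cells (limma adjusted p = 1). The second Opa1 probe gave -0.62 ± 0.15 in wild type (limma adjusted p = 0.0601 over probes). Of all genes 2.69% passed, 0.946% higher and 1.75% lower. The share of higher calls among all calls was 35.1%, and 15.3% when each array was scaled to its median.

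Bnip3 had levels of 6.65, 6.25 and 6.54 with PBS and 7.31, 7.71 and 8.25 with doxorubicin in wild type at 72 h. The groups were well apart, but the spread of the doxorubicin arrays was wide, and the difference of 1.27 ± 0.34 did not pass (limma adjusted p = 0.0659). In Top2b-deleted cells replicate 2 with doxorubicin was at 8.11 and replicates 3 and 4 at 6.74 and 6.96, against 6.60, 6.58 and 6.82 with PBS, for a difference of 0.60 ± 0.34 (limma adjusted p = 1). Dnm1l had levels of 4.43, 4.16 and 3.90 with PBS and 3.75, 3.17 and 3.43 with doxorubicin in wild type, a difference of -0.71 ± 0.18 (limma adjusted p = 0.0579) with no overlap. Its Top2b-deleted difference was -0.19 ± 0.18.

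The other wild-type differences at 72 h were -0.42 ± 0.16 for Mfn2, -0.37 ± 0.15 for Mfn1, -0.52 ± 0.22 for Mff, 0.22 ± 0.16 for Bnip3l, 0.17 ± 0.22 for Pink1 and -0.10 ± 0.14 for Fis1. For Fis1 the spot of doxorubicin replicate 4 was an outlier and was dropped, leaving 2 arrays in that group. The median over members was -0.37, against -0.08 over all genes.

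The 72 h arrays lie on 2 slides, each holding every group. With the slide as a block, 5 members passed in wild type, with 13.4% of all genes: Opa1 (-0.59, limma adjusted p = 0.0178), Mff (-0.52, limma adjusted p = 0.0314), Dnm1l (-0.71, limma adjusted p = 0.0317), Mfn2 (-0.42, limma adjusted p = 0.0383) and, upward, Bnip3 (1.27, limma adjusted p = 0.0396). Within slide 3, with 2 arrays a group, the differences were -0.59, -0.53, -0.83, -0.38 and 1.06 in the same order and none passed. On slide 4, with 1 array a group and hence no test, they were -0.60, -0.50, -0.47, -0.51 and 1.71. The direction was the same on both slides for all 5. These 5 were picked by the slide-block fit of the same arrays, which favours such agreement, so it is not separate support. With Y-linked transcripts as a covariate the Opa1 call was lost (-0.58, limma adjusted p = 0.0761), and so it was in 9 of 12 fits that each leave out 1 array. Of 4 neutrophil markers tested here 3 were called higher, with summed levels of 0.204 to 1.21 with PBS and 2.13 to 10.6 with doxorubicin in wild type. S100a8 and Retnlg were not well above background on any wild-type PBS array, and S100a9 was on 1 of 3. S100a8 and S100a9 passed the filter only through the wild-type doxorubicin arrays. No size is given for them, and a call on either is no support for a rise. The summed cardiomyocyte markers were at 7700 to 11700 and 5810 to 8490. The part of these markers, and of the uneven Esr1 signal of the wild-type arrays, in the members' differences was not tested.

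In Top2b-deleted cells 0 of 9 members passed at 72 h, as did 0% of all genes by limma (429 with an unadjusted p under 0.05), and the differences lay between -0.21 for Mfn2 and 0.60 for Bnip3. For the difference of responses at 72 h again 0 of 9 members and 0% of genes passed by limma (1389 with an unadjusted p under 0.05). The largest among members was Bnip3 at -0.67 ± 0.48 (95% interval -1.73 to 0.39), followed by Dnm1l at 0.52 ± 0.25 (-0.03 to 1.08) and Opa1 at 0.45 ± 0.17 (0.07 to 0.84, limma adjusted p = 0.697).

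Whether the wild-type response changed between the times was tested as the 72 h difference minus the 16 h difference. Only Mfn1 passed, at 0.84 ± 0.17 (limma adjusted p = 0.00751), 1 of 9 members where 6.14% of genes passed, 2.25% higher and 3.88% lower: its fall was smaller at 72 h. For Dnm1l and Mfn2 the values were 0.03 ± 0.21 and 0.11 ± 0.19, with 95% intervals of -0.41 to 0.47 and -0.28 to 0.50, so a change of the size seen for Mfn1 lies outside both. Opa1 was at -0.49 ± 0.16 (limma adjusted p = 0.0794) and Bnip3 at 0.53 ± 0.40. Since each time has its own slides and scan batch, a difference of responses between times and one between batches cannot be told apart. The Mfn1 call was lost when each array was scaled to its median (0.75, limma adjusted p = 0.0635), which also moved the share of higher calls from 36.7% to 23.2%.

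Over the 24 arrays, with each gene centred within each time, Dnm1l levels correlated with those of Mfn2 at 0.82 and of Mfn1 at 0.80, and Mfn1 with Mfn2 at 0.78 (Pearson, as a description, since the arrays share the treatment groups). Opa1 correlated with Mfn1 at only 0.19, and Bnip3 with Mfn2 at -0.65. The 3 genes most like each called member among 18259 were Agmat, Kremen1 and Mapk10 for Mfn1 (each 0.92), Kptn, 1300001I01Rik and Fastk for Mfn2 (0.91 to 0.92), Spryd4, Dlat and AW122206 for Opa1 (0.92 to 0.95) and Mmachc, Hsd17b4 and Ank2 for Dnm1l (0.96 to 0.97). For Bnip3 they were a probe with no gene name, Itm2b and Cdo1 (0.92 to 0.96).

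Other genes of mitochondrial dynamics were counted from lists. Of 20 further fusion and fission factors tested, 2 rose and 6 fell in wild type at 16 h, with a median of -0.17, where 13.7% of all genes rose and 14.1% fell. The fallers with the smallest adjusted p were Mtfp1, an inner membrane protein that promotes fission (-1.23 ± 0.15, limma adjusted p = 0.000434), Dnm2, a dynamin GTPase (-0.69 ± 0.13), and Yme1l1, the protease that cleaves OPA1 (-0.65 ± 0.19). Usp30, a deubiquitinase of the outer membrane that opposes mitophagy, rose (0.52 ± 0.11). In Top2b-deleted cells Mtfp1 was at 0.10 ± 0.15, and its responses differed by 1.33 ± 0.22 (limma adjusted p = 0.00531). At 72 h it was the 1 gene of this list to fall in wild type (-1.31 ± 0.28, limma adjusted p = 0.0436). The next smallest adjusted p at 72 h were those of Inf2 (1.91 ± 0.45), Phb (-0.61 ± 0.17) and Pld6 (-1.48 ± 0.42, well above background on 1 of 3 wild-type doxorubicin arrays), none past the threshold.

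Mitochondrial transport, which moves the organelle along microtubules, had the lowest median of the 5 lists. Of 8 genes 5 fell and 0 rose in wild type at 16 h, with a median of -0.81, against 14.1% of all genes lower and 13.7% higher. The motor adaptors Trak1 (-2.24 ± 0.21, limma adjusted p = 8.75e-05) and Trak2 (-0.90 ± 0.14), the metaxin Mtx1 (-0.72 ± 0.18) and the outer membrane GTPase Rhot1 (-0.42 ± 0.12) were among them. Trak1, Trak2 and Rhot1 also passed in the difference of responses, at 2.25 ± 0.30, 0.99 ± 0.20 and 0.60 ± 0.17. At 72 h Trak1 (-1.39 ± 0.24), Trak2 (-0.69 ± 0.16) and Rhot1 (-0.58 ± 0.13) fell in wild type, and Mtx1 was at -0.64 ± 0.16 (limma adjusted p = 0.0582). Rhot1 encodes Miro1, which anchors the motor complex to the organelle.

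Of 24 other mitophagy genes 6 rose and 1 fell in wild type at 16 h, with a median of 0.02. The 7 called of 24 stand near the background of 27.8% of all genes called (13.7% higher and 14.1% lower), here and in the autophagosome list. The kinase Tbk1, which phosphorylates mitophagy receptors, rose by 0.80 ± 0.12, Calcoco1 by 0.66 ± 0.10, the beclin partner Ambra1 by 0.97 ± 0.18 and the phosphatase Pgam5 by 0.40 ± 0.10. Of 24 autophagosome genes 6 rose and 1 fell, with a median of 0.20, led by the ATG8 homologue Gabarapl1 (1.63 ± 0.21, limma adjusted p = 0.000501), and followed by Wipi2 (0.49 ± 0.11), Atg3 (0.48 ± 0.12) and Atg12 (0.49 ± 0.12). Gabarapl1 was at -0.04 ± 0.21 in Top2b-deleted cells, and its responses differed by -1.67 ± 0.30 (limma adjusted p = 0.00772). Neither list had a gene past the threshold in wild type at 72 h. The 4 smallest adjusted p there were for Pgam5 (-0.49 ± 0.13), Tomm70a (-0.47 ± 0.15), Sqstm1 (1.05 ± 0.34) and Ubqln1 (-0.48 ± 0.17) in the first list, and for Ulk2 (-0.59 ± 0.14), Ulk1 (-0.50 ± 0.15), Atg13 (0.89 ± 0.29) and Gabarapl1 (0.69 ± 0.23) in the second.

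Of 13 mitochondrial proteases and chaperones 0 rose and 2 fell in wild type at 16 h, with a median of -0.05, where 27.8% of all genes were called: Afg3l2, a subunit of the inner membrane m-AAA protease (-0.48 ± 0.11), and the chaperonin Hspe1 (-0.55 ± 0.15). Htra2 (0.26 ± 0.09) and Hspd1 (-0.27 ± 0.14) followed by adjusted p and did not pass. At 72 h none passed, with Pmpcb at -0.72 ± 0.17, Hspe1 at -0.67 ± 0.17, Afg3l2 at -0.62 ± 0.17 and Hspd1 at -0.59 ± 0.17. In Top2b-deleted cells 0 genes of the 5 lists passed at either time. The list medians stand beside a median of -0.02 over all genes in wild type at 16 h and -0.08 at 72 h.

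**Figure D4:**
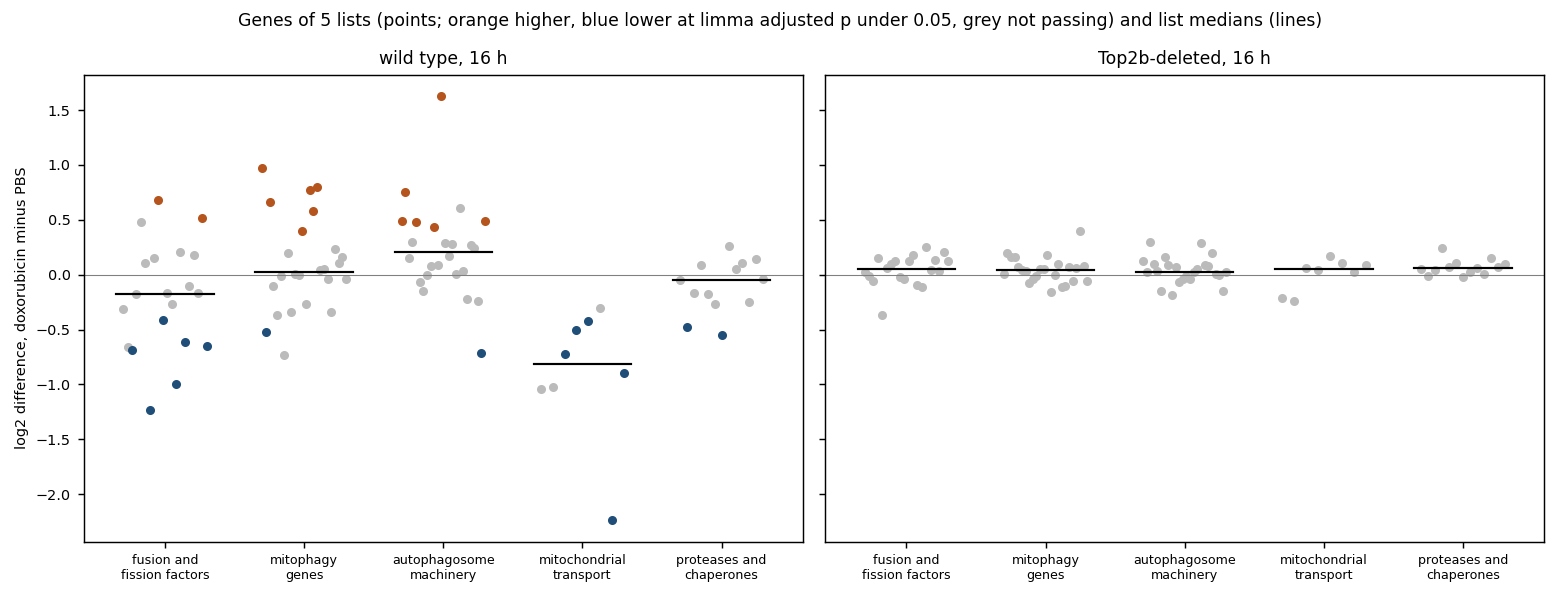
Log2 difference between doxorubicin and PBS at 16 h for each gene tested of 5 lists, in wild-type (left) and Top2b-deleted (right) cardiomyocytes. Points are genes, coloured where limma called them, and lines are list medians, which run from -0.81 for mitochondrial transport to 0.20 for autophagosome machinery in wild type.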

How the data were processed

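RNA of isolated cardiomyocytes was measured on 24 Agilent 1-colour arrays, 3 in each of 8 groups. Per the file headers, the authors' scanner output comes from version 10.7.3.1 of Agilent's Feature Extraction and gives the processed intensity of each spot (background-subtracted and detrended, not normalized between arrays). A deposited value table holds a ratio, the same signal over the array's median, and was used only as a check. Deposited flags mark outliers, which were set to missing, and spots well above background.

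Levels are log2 signal minus the array's 75th percentile. Probes entered a fit if well above background on all 3 arrays of any group, and the brightest such probe stood for its gene, which left 18750 genes at 16 h and 19669 at 72 h. All 9 members passed this filter, 1 Fis1 probe not. The 4 groups of a time were fitted with limma 3.58.1 in R 4.3.3, and Benjamini-Hochberg adjustment ran over all genes (threshold 0.05). The comparison between times used all 24 arrays. Probe-level p-values were adjusted over all probes. The procedure was tested on simulated data.

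All 9 members are named. 1 further gene of the set is not reported here. Of each list, up to 4 genes per wild-type response with the smallest adjusted p are named, and for called members the 3 genes of highest correlation. Members and lists were chosen with earlier results of these data known. Probe positions are those of the array files (mm9). The number of arrays limits the precision.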

Additional observations from a re-analysis of the deposited data

Results flagged for a closer look

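The wild-type and Top2b-deleted responses to doxorubicin at 16 h differed, by the limma test of the difference itself, for Mfn1 (1.35 ± 0.16, adjusted p = 0.00141), Mfn2 (0.57 ± 0.16, adjusted p = 0.0427) and Dnm1l (0.85 ± 0.18, adjusted p = 0.0161). The call was lost in 17 of 25 alternatives for Mfn2, 5 for Dnm1l (among them the slide as a block) and 1 for Mfn1. The wild-type response of Mfn1 differed between 72 h and 16 h by 0.84 ± 0.17 (limma adjusted p = 0.00751), with time and slide not separable.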

How the results depend on the processing

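Of the 9 members, the count called in wild type at 16 h was 4 and fell to 2 with only the wild-type arrays in the fit and to 2 without the arrays whose genotype characteristic differs. It rose to 5 with normexp, where Bnip3l was called too. It was 0 when groups followed that characteristic, where 0% of all genes passed. For the difference of responses at 16 h the count of 3 became 1 with no filter on dim probes, 1 with the slide as a block, 1 without the arrays of differing characteristic and 0 by the characteristic. For the genotypes in PBS at 16 h the count of 2 became 0 under array median scaling, normexp background correction, no filter, the slide as a block, Y-linked transcripts as a covariate, the characteristic, without the differing arrays and within slide 1 (chosen after seeing the data). In wild type at 72 h the count of 1 became 0 under quantile normalization, no filter, the comparison's own groups, Y-linked transcripts as a covariate and within slide 3 (chosen after seeing the data), 2 under array median scaling, normexp and the strict filter, and 5 with the slide as a block. For the response at 72 h minus 16 h the count of 1 became 0 under array median scaling, the comparison's own groups and the characteristic.

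Leaving out 1 array at a time gave 0 to 2 members for genotype in PBS at 16 h (main 2), 1 to 3 for the difference of responses at 16 h and 0 to 3 for wild type at 72 h (main 1). Without Top2b-deleted PBS replicate 2 only Mfn1 kept its difference of responses. Replicate numbers were not treated as pairs in the main fits. With group means removed, same-numbered arrays of different groups correlated over 0.1 in 6 of 18 pairs at 16 h. Their median was 0.06, against -0.03 for other numbers. At 72 h 16 of 18 pairs did (lowest 0.00), with a median of 0.35 against -0.24. Same-numbered arrays thus resembled each other at 72 h, which the main fit of that time leaves out. With a replicate block 5 members passed in wild type at 72 h, with 16.7% of all genes, and 1 for genotype in PBS at 16 h. Fis1, never called, changed sign to 0.02 under quantile normalization at 72 h and, with 1 array left out at 16 h, ranged from -0.01 (without wild-type doxorubicin replicate 1) to 0.23; the cause was not tested. Signal over background limits the upstream Mfn2 probe, which was not well above background on 1 array. The share of all genes called moved by over 1.5 times as follows. In wild type at 16 h it was 27.8%, and 11% with no filter, 12.5% with the comparison's own groups, 18.5% without the differing arrays and 17.7% within slide 1. For the difference of responses at 16 h it was 11.4%, and 2.79% with no filter, 1.99% with the slide block and 5.73% without the differing arrays. For genotype in PBS at 16 h it was 12.5%, and 3.66%, 6.51% and 7.38% under those 3, 4.28% within slide 1 and 29% with its own groups. In wild type at 72 h it was 2.69%, and 4.88% under median scaling, 4.59% under the strict filter, 0.0631% with no filter, 0.138% with its own groups and 0.112% with the Y-linked covariate. For genotype in PBS at 72 h it was 2.15%, and 0.795% with no filter, 4.04% with the slide block, 4.62% with the replicate block and 3.27% within slide 3. For 72 h minus 16 h it was 6.14%, and 1.74% with no filter, 0.979% with its own groups, 11% with the replicate block and 2.7% without the differing arrays. Median scaling moved the median of all genes in wild type at 72 h from -0.08 to -0.18.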
